A study of Mus musculus with 12 samples.

Results

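Across 12 RNA-seq libraries of mouse heart, 7 of 13488 genes tested had transcript levels that rose with Sln inside the treatment groups, and 0 fell. Sln encodes sarcolipin, a small membrane peptide that regulates the calcium pump of the sarcoplasmic reticulum and is made mainly by atrial muscle in the rodent heart, so its level was used as a measure of atrial content. The members were selected on these same libraries. Each gene's log2 CPM (counts scaled to library size) was regressed on log2(Sln TPM + 1), where TPM is the library-scaled abundance per transcript length, with the 4 groups as a covariate and Sln itself left out. Calls required a limma p, adjusted by Benjamini-Hochberg over all genes tested, under 0.05. The slopes below therefore describe the choice of genes and support nothing further.

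The mice were ICR, an outbred stock, aged 10 weeks, and total RNA was taken from the heart, with 3 libraries in each group. The control group is labelled control only. The busulfan group received busulfan, an alkylating chemotherapy drug, at 20 mg/kg. The other two groups are labelled B+Con-FMT and B+AOS10mg/kg-FMT, called control-FMT and AOS-FMT here, and their labels state no busulfan dose and do not spell out B. The study asked how FMT acts on a heart damaged by busulfan. The labels do not say that replicates came from separate animals, so p-values measure the spread between these samples, which may be technical.

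Atrial and ventricular muscle cells of the heart share most of their contractile machinery but use different copies of several parts. In the mouse, Myl7 and Myl4 encode the regulatory and essential myosin light chains of the atria, and Myl2 and Myl3 those of the ventricles. Atrial muscle also secretes the natriuretic peptide encoded by Nppa and carries acetylcholine-gated potassium channels encoded by Kcnj3 and Kcnj5.

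Library totals ran from 11333650 to 14335688 estimated counts, and 15097 to 16083 genes had a count. Replicates of a group differed by 8.88 to 71.5 chi-square units per degree of freedom, well beyond sampling noise. Ventricular markers were abundant in every library, with Myl2 between 13104 and 30584 TPM. Liver transcripts were high in AOS-FMT replicate 3, where Alb, the gene of serum albumin, stood at 224 TPM.

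The upstream windows of the called genes were read first, as a description of their letters. Moving with Sln is the rule that chose these genes, and shared control of them was not tested. A table of the 250 bases before each RefSeq start (GRCm38.p6) held entries for 4 of the 7 members, namely Myl7, Myl4, Mybphl and Cyp2e1. The windows of the 2 atrial sarcomere genes with a GATA core are shown 5′ to 3′ on the coding strand, in lower case, for Myl7 at chr11:5898783-5899032 on the minus strand and for Mybphl at chr3:108364661-108364910 on the plus strand. Capitals mark a match to the CArG box (the site class of serum response factor) or to the GATA core GATAA (the site class of GATA factors), searched on both strands.
Myl7: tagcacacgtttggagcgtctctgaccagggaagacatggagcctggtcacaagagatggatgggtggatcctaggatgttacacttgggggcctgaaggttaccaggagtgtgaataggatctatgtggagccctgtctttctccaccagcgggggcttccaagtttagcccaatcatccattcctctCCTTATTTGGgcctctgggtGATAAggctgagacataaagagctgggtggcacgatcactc
Mybphl: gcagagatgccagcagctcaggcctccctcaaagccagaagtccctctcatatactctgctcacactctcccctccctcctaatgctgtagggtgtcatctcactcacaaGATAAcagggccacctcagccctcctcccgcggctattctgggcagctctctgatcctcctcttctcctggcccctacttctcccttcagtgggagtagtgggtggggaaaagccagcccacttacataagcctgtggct
The Myl7 window held a CArG box from 61 to 52 bases before the start, and 1.21% of 13744 windows of tested genes held one. It also held GATAA from 41 to 37 bases before the start. The Mybphl window held GATAA from 140 to 136 bases before the start, and 14.9% of all windows held that motif. The NKX2-5 core AAGTG was in the windows of all 4 members and in 37.4% of all windows, so it is left in lower case. The E-box CANNTG was in 2 of the 4 and in 58.3% of all windows, and its match in the Myl7 window overlapped the AAGTG match. The MEF2 site, the T-box half-site AGGTGT and the nuclear receptor half-site AGGTCA were in 0 of the 4. The entry for Myl4 lies at a start inside the gene and held no CArG box or GATAA. These matches describe letters in these windows and were not tested as binding sites.

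Sln itself varied widely inside each group. Its level was 535, 4735 and 5444 TPM in control replicates 1, 2 and 3. In the busulfan group it was 8.48, 205 and 770 TPM, and in control-FMT 113, 5.16 and 1211 TPM. In AOS-FMT it was 923, 6968 and 4601 TPM. The highest library of a group stood 10.2-fold above the lowest in control, 90.7-fold in busulfan, 235-fold in control-FMT and 7.55-fold in AOS-FMT. The lowest levels rested on few molecules. Busulfan replicate 1 had 20 Sln counts (exact 95% Poisson interval 12.2 to 30.9) and control-FMT replicate 2 had 11 (5.49 to 19.7), intervals that cover counting error only. In bulk RNA, fewer atrial cells and less atrial RNA per cell cannot be told apart.

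Group means of Sln were high in control and AOS-FMT and low in the other two groups, with a spread inside groups that overlapped in most pairs. For control, log2(Sln TPM + 1) averaged 11.23 ± 1.88 (SD, n = 3), and for AOS-FMT 11.60 ± 1.54. The averages were 6.84 ± 3.26 for busulfan and 6.57 ± 3.82 for control-FMT. The AOS-FMT libraries all lay above the busulfan libraries, a difference of 4.76 on the log2 scale with a two-sided exact permutation p of 0.1, which is the smallest this design can give. The other 5 pairs of groups overlapped, with exact permutation p from 0.2 to 0.9. After adjustment over the 6 pairs the smallest exact p was 0.3.

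**Figure D1:**
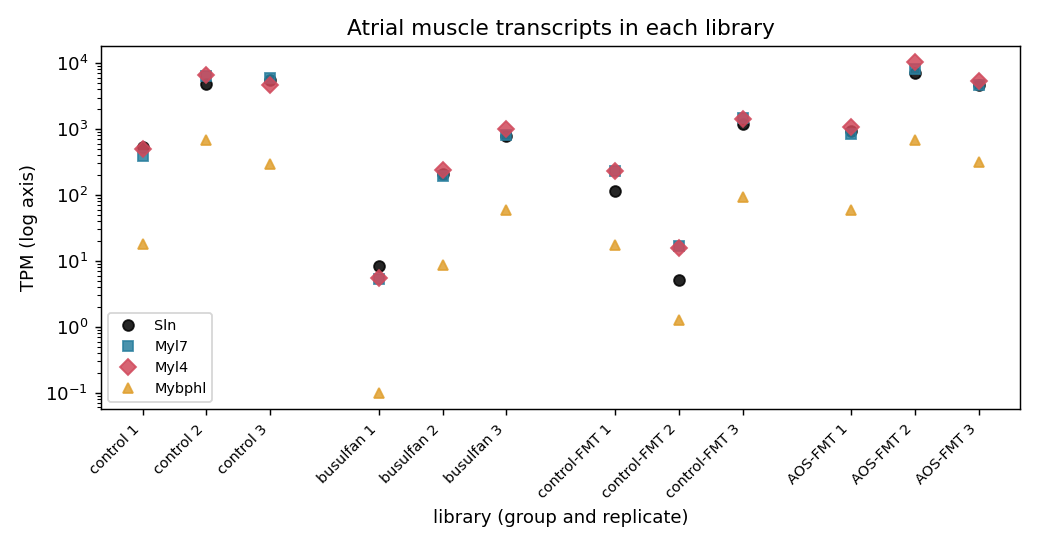
Levels of Sln, Myl7, Myl4 and Mybphl in TPM (log axis) in each of the 12 libraries, ordered by group and replicate, one point per gene and library. In each group all 4 transcripts are lowest in the library lowest in Sln; Sln spans 5.16 TPM in control-FMT replicate 2 to 6968 TPM in AOS-FMT replicate 2.

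The 3 steepest members were genes of the atrial sarcomere. Myl7 (myosin light chain 7, chromosome 11, 5896637 to 5898782, GRCm38.p6) stood at 388, 6340 and 5840 TPM in control, 5.26, 191 and 802 TPM in busulfan, 231, 16.7 and 1453 TPM in control-FMT and 851, 8227 and 4607 TPM in AOS-FMT. The libraries lowest in Sln were also lowest in Myl7 in each group, and the AOS-FMT libraries lay above the busulfan libraries for Myl7 as for Sln. Separation of groups, here and for the members below, is a description of levels. The share of all genes that separate in the same way was not counted. With 3 libraries in each group, full separation gives an exact permutation p of 0.1. The slope of Myl7 was 0.99 ± 0.04 (SE) log2 CPM per unit of log2(Sln TPM + 1), with a limma adjusted p of 2.25e-06. A slope near 1 means that log2 Myl7 and log2 Sln moved by nearly the same amount.

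Myl4 (myosin light chain 4, chromosome 11, 104546017 to 104587215) stood at 489, 6697 and 4630 TPM in control, 5.59, 241 and 992 TPM in busulfan, 230, 15.4 and 1437 TPM in control-FMT and 1078, 10199 and 5387 TPM in AOS-FMT. The low and high libraries were those of Myl7, and again the AOS-FMT libraries lay above the busulfan libraries. Its slope was 0.93 ± 0.04, with a limma adjusted p of 3.21e-07, the smallest of any gene. Mybphl, which encodes a myosin-binding protein of the H-like kind found in atrial muscle (chromosome 3, 108364911 to 108380057), was lower per length. It stood at 17.9, 672 and 298 TPM in control, 0.10, 8.58 and 60.2 TPM in busulfan, 17.2, 1.26 and 91.8 TPM in control-FMT and 59.4, 681 and 313 TPM in AOS-FMT. Its groups all overlapped, AOS-FMT and busulfan narrowly. Its slope was 1.01 ± 0.09 with a limma adjusted p of 0.00870. Leaving out each library in turn kept all 3 called, with slopes of 0.88 to 1.00 for Myl4, 0.93 to 1.07 for Myl7 and 0.94 to 1.13 for Mybphl.

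The other 4 members are enzymes or transporters and had shallower slopes. Scd1, the stearoyl-CoA desaturase that makes monounsaturated fatty acids (chromosome 19, 44394450 to 44407709), stood at 5.58, 16.6 and 14.3 TPM in control, 3.86, 5.83 and 10.1 TPM in busulfan, 10.0, 6.0 and 19.4 TPM in control-FMT and 10.9, 13.3 and 11.8 TPM in AOS-FMT. The AOS-FMT libraries lay above the busulfan libraries, and the other pairs of groups overlapped. Its slope was 0.21 ± 0.03 log2 CPM per unit of log2 Sln, with a limma adjusted p of 0.00735. Without control-FMT replicate 3, the library with the highest Sln of that group, its slope was no longer called, and the adjusted p over all left-out libraries ran from 0.00397 to 0.126.

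Cyp2e1, a cytochrome P450 that oxidises ethanol and other small molecules (chromosome 7, 140763819 to 140774990), stood at 0.41, 1.81 and 2.44 TPM in control and 0.41, 0.89 and 3.00 TPM in busulfan. In control-FMT it was 5.53, 1.33 and 11.02 TPM, and in AOS-FMT 6.24, 13.8 and 22.9 TPM. The AOS-FMT libraries lay above every control and busulfan library and overlapped with control-FMT, a description without the share of all genes that separate likewise. Its slope was 0.40 ± 0.05, with a limma adjusted p of 0.00978. The call was lost without busulfan replicate 3, control-FMT replicate 2 or control-FMT replicate 3, with adjusted p up to 0.111.

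Abca6, an ABC transporter of the A subfamily (chromosome 11, 110174638 to 110251776), stood at 3.45, 6.86 and 5.62 TPM in control, 2.79, 2.96 and 5.19 TPM in busulfan, 4.91, 2.40 and 7.50 TPM in control-FMT and 4.58, 8.47 and 5.75 TPM in AOS-FMT. The groups overlapped, and its slope of 0.19 ± 0.03 was the shallowest of the 7 (limma adjusted p 0.0181). Cdo1, the cysteine dioxygenase that starts the route from cysteine to taurine (chromosome 18, 46713193 to 46728502), stood at 1.03, 3.92 and 4.6 TPM in control, 0.79, 1.58 and 5.51 TPM in busulfan, 2.56, 1.75 and 6.73 TPM in control-FMT and 5.34, 9.87 and 8.96 TPM in AOS-FMT. Its groups overlapped except AOS-FMT, which lay above control. Its slope was 0.32 ± 0.05. With 1 library left out at a time, Cdo1 stayed called only without busulfan replicate 2 or control-FMT replicate 2. Abca6 lost its call without control replicate 1 or 3, busulfan replicate 3, control-FMT replicate 2 or 3, or AOS-FMT replicate 1. The adjusted p reached 0.263 for either gene.

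**Figure D2:**
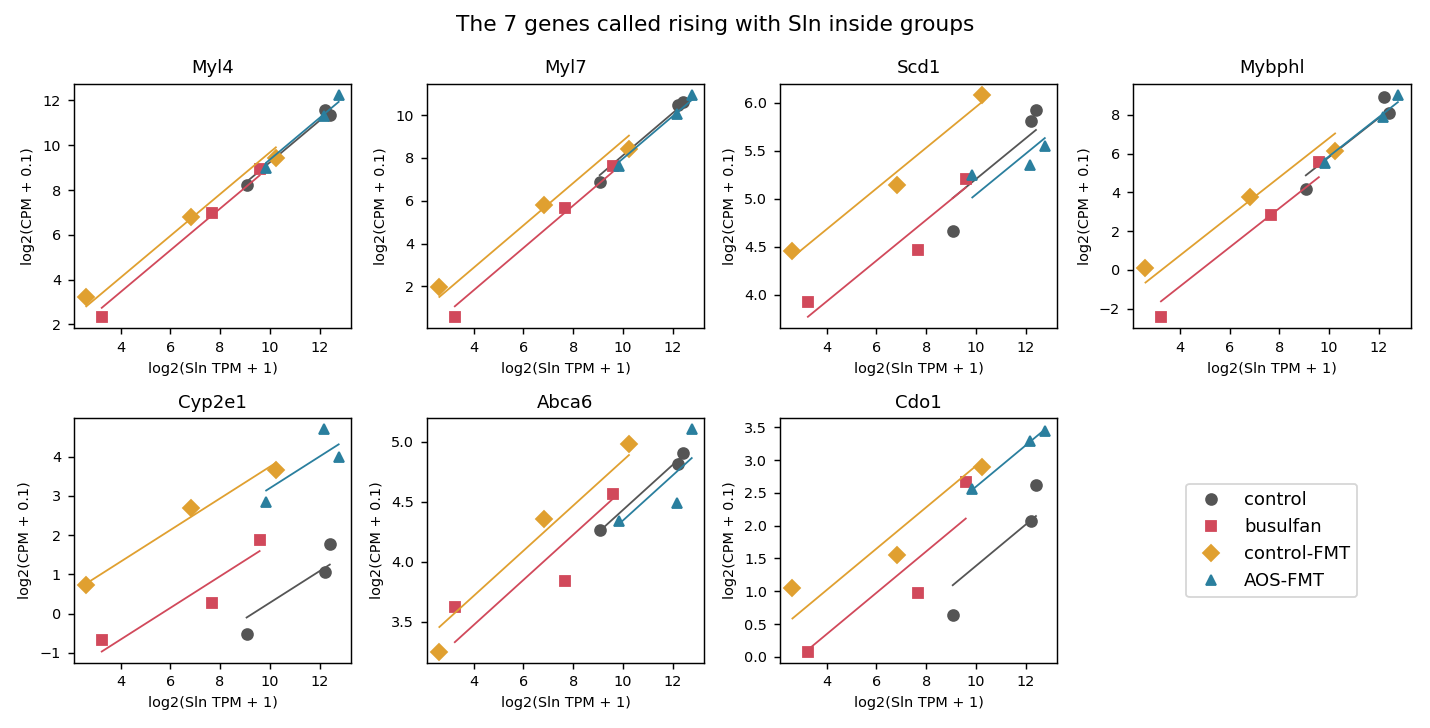
Each panel plots log2(CPM + 0.1) of 1 of the 7 called genes against log2(Sln TPM + 1), 1 point per library, coloured by group, with lines of the common slope fitted at each group's level. The lines of Myl4, Myl7 and Mybphl have slopes near 1, and those of Cyp2e1 have a slope of 0.40 and stand apart by group.

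Cdo1 was the last gene inside the threshold, with an adjusted p of 0.0465, and Abca6 the one before it. The first genes outside were Fgf12 and Itih4. Fgf12, an intracellular fibroblast growth factor that binds voltage-gated sodium channels, had a slope of 0.67 ± 0.09 and an adjusted p of 0.0597. Itih4, a heavy chain of the inter-alpha-trypsin inhibitor family, had a slope of 0.31 ± 0.05 and an adjusted p of 0.0845. Fgf12 thus had a steeper slope than either gene just inside, and Itih4 one close to that of Cdo1.

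The called genes made up 0.0519% of genes tested for rising and 0% for falling. Over all 13488 genes the median slope was 0.0011, with 6933 slopes above 0 and 6555 below. At an unadjusted limma p under 0.05, 868 genes had a positive slope and 468 a negative one. The falling gene with the smallest p was Ankrd9, an ankyrin repeat gene, with a slope of -0.11 ± 0.02 and an adjusted p of 0.134. It was followed by Fbxl22, an F-box gene of the cardiac Z-disc, at -0.09 ± 0.02, and Amd1, which encodes a decarboxylase of polyamine synthesis, at -0.07 ± 0.02. None of these passed.

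Genes of other atrial roles mostly had positive slopes, and none of them was called. Of the 5 genes listed as atrial contractile besides Sln, 3 were called and all 5 had slopes above 0, with a median of 0.93. Sbk3, a muscle kinase of that list, had a slope of 0.91 ± 0.13 and a limma adjusted p of 0.123. The 6 atrial secreted genes all had slopes above 0, with a median of 0.42 and 0 calls. Among them Nppa, the gene of atrial natriuretic peptide, had a slope of 0.53 ± 0.12 (adjusted p 0.294), from 506 TPM in busulfan replicate 1 to 39033 TPM in AOS-FMT replicate 2. Bmp10, a growth factor gene of atrial muscle, had a slope of 0.75 ± 0.32 (adjusted p 0.509). Of the 6 atrial channel genes 5 had slopes above 0 and 1 below, with a median of 0.11. The 5 atrial transcription factor genes all had slopes above 0, with a median of 0.12, and both lists had 0 calls.

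Ventricular and energy genes lay slightly below 0 on this scale. Of 12 ventricular muscle genes, 11 had negative slopes, with a median of -0.04 and 0 calls. Myl2, the ventricular regulatory light chain, had a slope of -0.08 ± 0.04 and Myl3 -0.07 ± 0.04. Of 34 oxidative phosphorylation genes 33 were below 0, and of 14 fatty acid oxidation genes all 14 were, each list with a median of -0.04 and 0 calls. The myosin heavy chains Myh6 and Myh7 had slopes of -0.02 ± 0.03 and -0.02 ± 0.03.

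Genes of fat, mesothelium and endocardium had positive median slopes, and 0 genes of these 3 lists were called. Of 7 white fat genes tested, 5 had slopes above 0 and 2 below, with a median of 0.36. Of 12 mesothelial and epicardial genes, which mark the outer lining of the heart, 11 were above 0 and 1 below, with a median of 0.29. All 5 endocardial genes were above 0, with a median of 0.20. The mean log2 CPM of the white fat list correlated with log2 Sln inside groups at r = 0.778 (n = 12 libraries, which share the depth and scaling of both measures). Its summed level ran from 558 to 880 CPM in control, 642 to 759 in busulfan, 607 to 778 in control-FMT and 697 to 806 in AOS-FMT. Adipoq, Plin1, Cidec and Cfd averaged only 2.09, 1.17, 1.98 and 7.13 CPM, so other genes of the list made up most of this sum. The sum did not follow the mean log2 CPM, since its control maximum of 880 CPM was in replicate 1, the control library lowest in Sln. The adipocyte marker Adipoq was low throughout, at 0.36, 1.09 and 4.46 TPM in control, 0.11, 0.64 and 1.78 TPM in busulfan, 2.34, 0.44 and 8.39 TPM in control-FMT and 5.57, 6.23 and 1.83 TPM in AOS-FMT. The lipid droplet gene Plin1 was at 0 in control replicate 1 and Cidec at 0 in busulfan replicate 1. In every group the library lowest in Sln was lowest in Adipoq except AOS-FMT.

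With the white fat list's mean log2 CPM added to the regression, an alternative chosen after seeing the data, 2 genes were called rising. Myl7 had a slope of 0.99 ± 0.07 and Myl4 of 0.94 ± 0.06, close to their values without it. Mybphl had a slope of 0.98 ± 0.15 and Cyp2e1 of 0.42 ± 0.09, without a call. The slopes of Scd1, Abca6 and Cdo1 were 0.14 ± 0.03, 0.13 ± 0.04 and 0.23 ± 0.07, smaller than without the fat list. The part of fat in the result was not tested beyond these values.

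Liver genes moved less with Sln. Their mean log2 CPM correlated with log2 Sln inside groups at r = 0.210 (n = 12), and their median slope was 0.05 over 12 genes. Their summed level was 12.5 to 68.1 CPM in control, 33.7 to 41.9 in busulfan, 25.9 to 62.8 in control-FMT and 70.0 to 698 in AOS-FMT. The mean log2 CPM set control apart more than the sum did. It was -0.60 to -0.15 in control, 0.96 to 1.01 in busulfan, 0.22 to 1.79 in control-FMT and 1.92 to 5.07 in AOS-FMT. With this list's mean log2 CPM added, 6 of the 7 members were still called, Cdo1 being the exception (adjusted p 0.0861), and Cyp2e1 had a slope of 0.38 ± 0.05. The number of genes detected also correlated with log2 Sln inside groups at r = 0.702 (n = 12), and the total count at r = 0.0572.

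Which genes were called differed with the scale of the covariate. On the log2 scale, the busulfan and control-FMT libraries supplied 34.1% and 46.9% of the within-group sum of squares of Sln, and control and AOS-FMT 11.3% and 7.63%. With Sln in linear TPM, control and AOS-FMT supplied 41.6% and 54.8%, and busulfan and control-FMT 0.923% and 2.63%. The log2 regression is thus weighted to steps among low Sln levels, and the linear regression to steps among high ones.

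**Figure D3:**
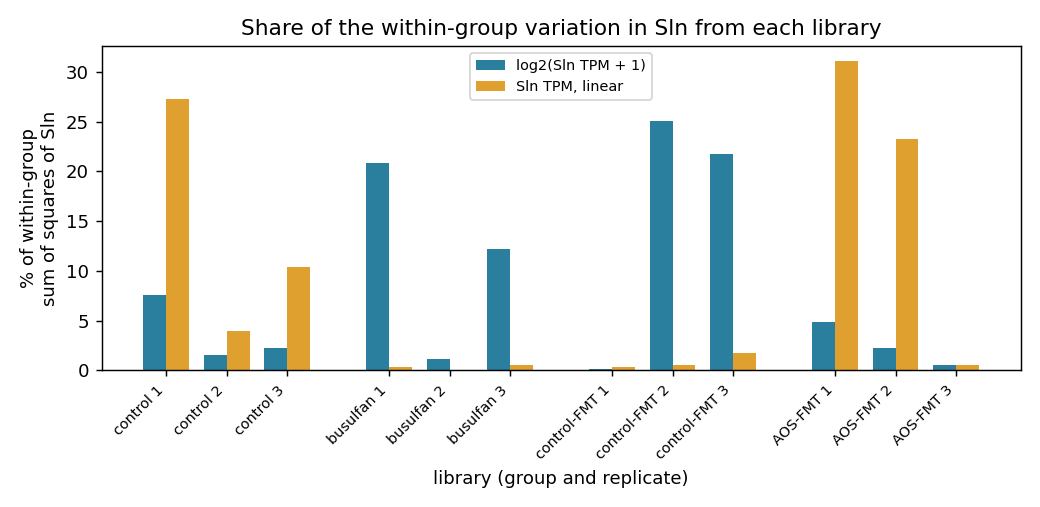
Percent of the within-group sum of squares of Sln that each library supplies, with Sln as log2(TPM + 1) or as linear TPM. The log2 bars are tallest in busulfan and control-FMT libraries, and the linear bars in control and AOS-FMT libraries.

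With linear Sln TPM, 532 genes were called rising, 3.94% of those tested, and 271 falling, or 2.01%. None of the 7 members was among them. Their slopes stayed positive, for example 0.82 ± 0.40 log2 CPM per 1000 TPM of Sln for Myl7, with limma adjusted p from 0.150 to 0.301. The count rested heavily on single libraries. It was 92 rising and 13 falling without AOS-FMT replicate 2, 193 and 80 without AOS-FMT replicate 1, and 130 and 68 without control replicate 1.

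The atrial genes called on the linear scale lay mostly outside the contractile list, which had 1 call of 5, the muscle kinase gene Sbk2 (0.68 ± 0.12 log2 CPM per 1000 TPM). The channel genes Kcnj3, Kcnj5, Gja5 and Cacna1d were called, 4 of 6, as were Nppa, Pam, Stard10 and Clu among the 6 secreted genes. Kcnj3 stood at 13.6, 79.5 and 43.9 TPM in control, 14.03, 14.7 and 20.2 TPM in busulfan, 14.7, 12.3 and 23.3 TPM in control-FMT and 20.7, 63.0 and 35.4 TPM in AOS-FMT. Its highest levels were in the 4 libraries highest in Sln, and the other 8 lay between 12.3 and 23.3 TPM. Its slope was 0.36 ± 0.05 log2 CPM per 1000 TPM. Among transcription factor genes, Tbx5 and Nr2f2 were called, 2 of 5, with slopes of 0.38 ± 0.06 and 0.24 ± 0.03.

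Ventricular muscle genes made up part of the falling calls, with 6 of 12 called, namely Myl2, Myl3, Irx4, Fhl2, Kcnip2 and Pln. Myl3, the ventricular essential light chain, stood at 18335, 11557 and 10936 TPM in control, 18233, 17994 and 17105 TPM in busulfan, 16984, 16332 and 15235 TPM in control-FMT and 15174, 7494 and 11096 TPM in AOS-FMT. The 4 libraries lowest in Myl3 were the 4 highest in Sln. The slope of Myl3 was -0.18 ± 0.02 log2 CPM per 1000 TPM and that of Myl2 -0.18 ± 0.03. Fatty acid oxidation genes had 8 of 14 called falling, among them Fabp3 (-0.15 ± 0.03), a fatty acid carrier, and Cpt1b (-0.07 ± 0.02), the muscle carnitine palmitoyltransferase of mitochondrial fatty acid entry. Oxidative phosphorylation genes had 1 of 34, Cox7a1. Falling calls were not confined to these lists. Of 16 sarcomere genes of both chambers, 3 were called falling and 1 rising. Of 11 calcium handling genes, 2 were called falling, Hrc and Pln. The median slopes of these lists were -0.07 and -0.06 log2 CPM per 1000 TPM, against -0.10 for the ventricular list.

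Genes of fibroblasts and endocardium were called rising on the linear scale. Fibroblast genes had 8 of 12 called, with Dcn, a matrix proteoglycan gene, at 0.12 ± 0.03 and Tcf21, a fibroblast transcription factor gene, at 0.20 ± 0.03 log2 CPM per 1000 TPM. Endocardial genes had 3 of 5, among them Npr3 (0.50 ± 0.08), the natriuretic peptide clearance receptor. Other lining cells had few calls, with 1 of 12 mesothelial and epicardial genes (Gpm6a) and 1 of 8 endothelial genes (Emcn). White fat genes had 0 of 7. The smallest p over all genes was that of Gng2, a G protein gamma subunit gene (0.41 ± 0.03), followed by Gpx3, a secreted glutathione peroxidase gene (0.38 ± 0.03), and Myl9, a smooth muscle light chain gene (0.40 ± 0.04). Named after its values were seen, Gpx3 stood at 341, 1862 and 1252 TPM in control, 323, 411 and 621 TPM in busulfan, 446, 427 and 718 TPM in control-FMT and 536, 2183 and 1311 TPM in AOS-FMT, the same 4 libraries being highest.

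**Figure D4:**
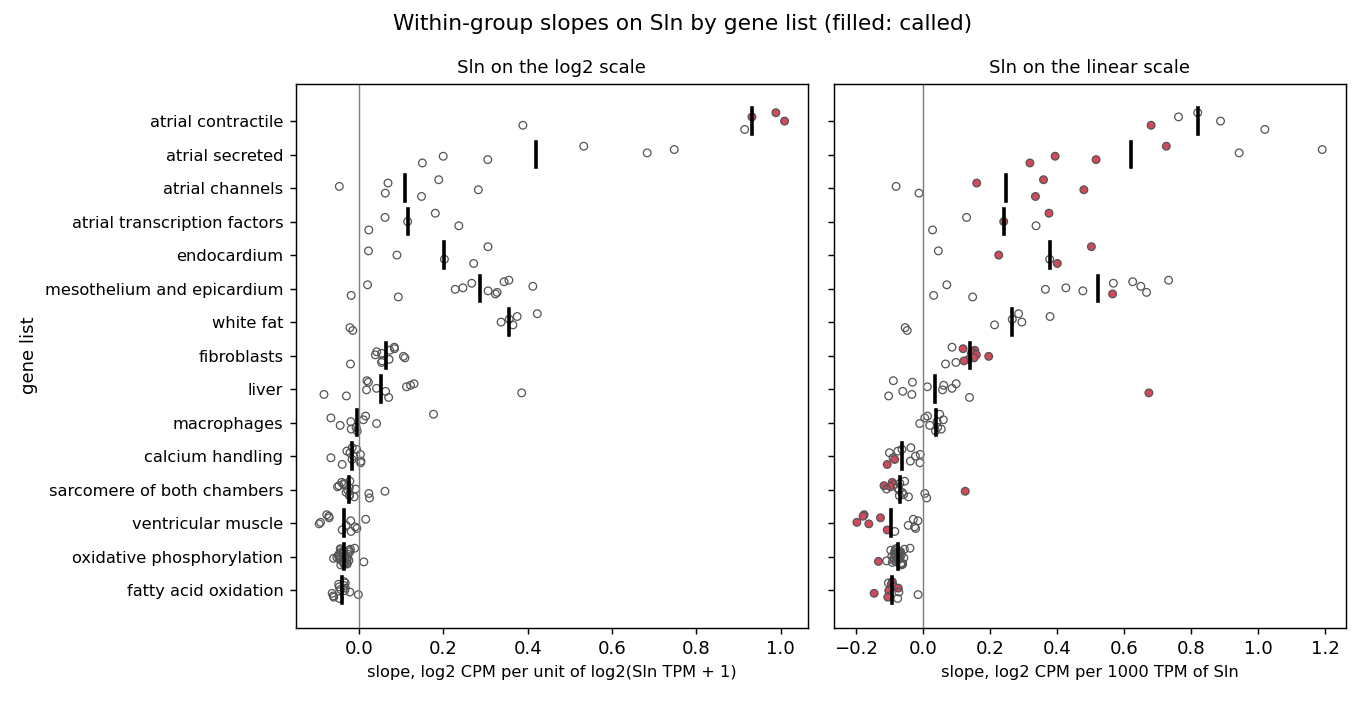
Slopes of the genes in 15 lists on Sln as log2(TPM + 1) (left, log2 CPM per unit) and as linear TPM (right, log2 CPM per 1000 TPM), 1 circle per gene, filled where called, with a bar at each list's median. On the left the filled circles are the 3 called atrial contractile genes, and on the right channel, secreted, fibroblast, ventricular and fatty acid oxidation genes are filled.

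Whether slopes differed between the 4 groups was tested over all genes with the interaction of group and log2 Sln. The members' choice used this variation too, since it is part of the residual of the common slope, so their values are a description. In limma's moderated F test 0 genes, or 0%, were called after adjustment, and 955 of 13488 had an unadjusted p under 0.05. Fitted group by group, the Myl7 slope was 0.85 for control-FMT, against 1.13 for control and 1.11 for both busulfan and AOS-FMT. The Mybphl slope was 0.78 for control-FMT, against 1.33 for control, 1.18 for busulfan and 1.16 for AOS-FMT, so control-FMT was lowest for both. In control-FMT, Myl7 reached 204%, 324% and 120% of the Sln TPM, against 62.0% to 134% over the other libraries.

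Differences between group means were tested with edgeR's quasi-likelihood test, using group as the only term. None of the 7 members was called in any of the 6 comparisons. The share of all genes called was 0.0593% for busulfan against control, 0% for control-FMT against control, 0.0816% for AOS-FMT against control, 0% for control-FMT against busulfan, 0.0445% for AOS-FMT against busulfan and 0.0297% for AOS-FMT against control-FMT. At these shares, a count of 0 among 7 genes is not a result about the members. The comparisons share groups, so their values are set side by side and not counted together.

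Sln is given here by the same edgeR measure as the members, which weights libraries by their counts and differs from the difference of mean log2 TPM above. In busulfan against control, where Sln differed by -3.43 on the log2 scale, all 7 were lower, with a median log2 difference of -0.94 against -0.01 over all genes and 0 members at an unadjusted p under 0.05, against 11.3% of all genes. In AOS-FMT against busulfan, where Sln differed by 3.57, all 7 were higher, with a median of 3.22 against 0.00 over all genes and 1 member at an unadjusted p under 0.05, or 14.3%, against 13.6% of all genes. Myl7 differed by -3.64 ± 1.92 (SE) in the first and 3.69 ± 1.92 in the second, with edgeR adjusted p of 0.527 and 0.411. In control-FMT against busulfan, where Sln differed by 0.35, all 7 were higher, with a median of 0.61. By mean log2(Sln TPM + 1), the Sln difference of this comparison had the other sign, at -0.27. In control-FMT against control 5 were lower and 2 higher, and in AOS-FMT against control 5 were higher and 2 lower. In AOS-FMT against control-FMT all 7 were higher as well, with a median of 1.26, where Sln differed by 3.22.

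In the comparisons of the FMT groups with control, Cyp2e1 lay farthest from Sln among the members. In AOS-FMT against control, where Sln differed by 0.14, Cyp2e1 was 3.03 ± 0.89 higher on the log2 scale, at 16.2 against 1.97 CPM, with an edgeR adjusted p of 0.343. In control-FMT against control, where Sln differed by -3.08, Cyp2e1 was 1.77 ± 0.90 higher, with an adjusted p of 0.639. Neither passed the threshold. Liver genes, given above, were also highest in AOS-FMT, and their part in the Cyp2e1 values was not tested.

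**Figure D5:**
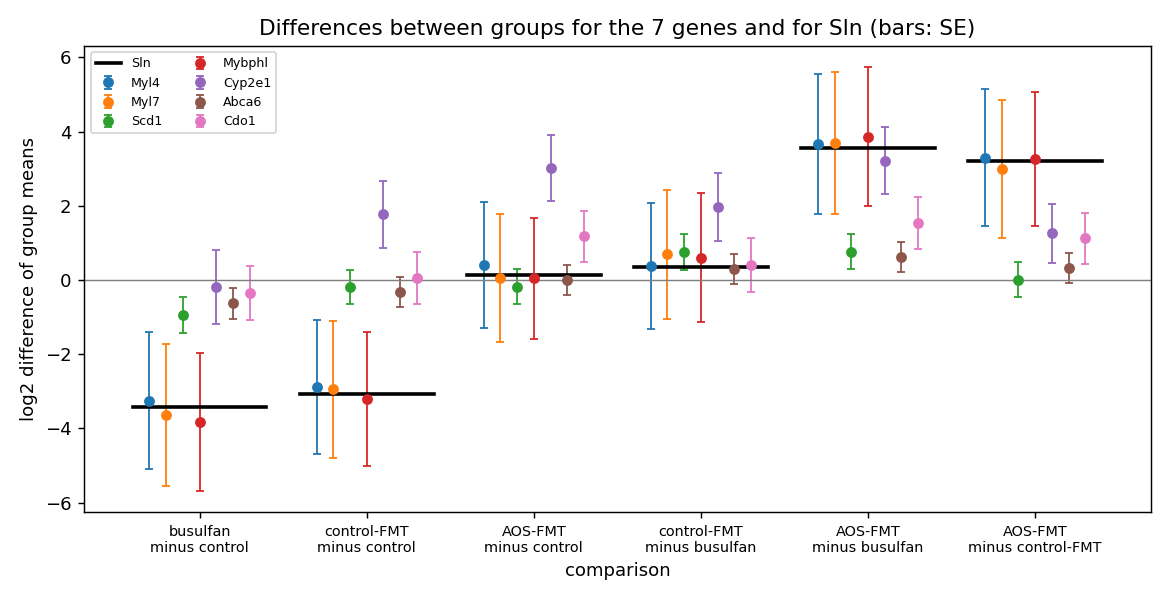
Differences of group means in the 6 pairwise comparisons for the 7 called genes (log2) and for Sln by the same edgeR fit (black lines). Points have bars of 1 SE, derived from edgeR's F statistic. The bars of Myl4, Myl7 and Mybphl reach across the Sln line in each comparison, and Cyp2e1 lies at 3.03 in AOS-FMT minus control, where Sln differs by 0.14.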

How the data were processed

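RNA-seq values of 12 heart libraries were used. The authors deposited estimated counts per gene (read count columns) as well as TPM values, as the column names show per the file headers. A further 24 value columns were not used. Bowtie 0.12.2 and the build mm10 come from the submitters' processing notes. The counting tool is not given in the sources used here. Of 17536 gene IDs, 17487 matched a GRCm38.p6 gene table, which gave the positions. GRCm38.p6 is the assembly that mm10 denotes.

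Estimated counts were rounded, filtered with filterByExpr (4047 genes removed), TMM scaled and turned into log2 CPM with a prior count of 2 (edgeR 4.0.16, R 4.3.3). Slopes came from limma 3.58.1 with trended, robust variance and 7 residual degrees of freedom, and slope differences from the same model with an interaction. Group differences came from edgeR's quasi-likelihood test. Their SE was derived as the absolute log2 difference divided by the square root of the test's F statistic. DESeq2 1.42.0 and limma-voom were alternatives. CPM is a share of the library, so a rise of abundant atrial transcripts lowers the share of others. Sln counts of 11 to 20124 set the precision of the covariate. The procedure was tested on simulated data.

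The members and gene lists were chosen with earlier results of these data known. Genes were named by a rule: called genes by smallest p with a mean of at least 5 CPM, the 3 smallest p where none was called in a direction, called list members, the 2 genes nearest the threshold on each side, and 16 fixed genes. Lung markers were not tested, since 0 of them passed the filter. Genes called on the linear scale, edgeR's further calls, and Sbk3, Adipoq, Plin1, Cidec, Cfd and Hamp were named after their values were seen.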

Additional observations from a re-analysis of the deposited data

How the results depend on the processing

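The 7 rising calls depended on the test: edgeR called 18, DESeq2 69 rising and 8 falling, and limma-voom 13. edgeR and DESeq2 kept all 7 members, and limma-voom lost Cyp2e1. Myl7 as the covariate gave 11 rising, and linear Sln TPM gave 532 rising and 271 falling. The white fat mean, an alternative added after seeing the data, left 2 rising. Scaling, prior count, filter, pseudocount, liver mean and Myl4 covariate gave 6 to 10 rising and 0 falling. Leaving out 1 library gave 3 to 10 rising, lowest without control-FMT replicate 3, and 0 falling. With linear Sln it gave 92 to 583 rising and 13 to 437 falling, alternatives also added after seeing the data. With the replicate number as a block, a pairing the labels do not state, 2 genes were called rising (Myl7 and Myl4) and 1 falling, so Mybphl, Scd1, Cyp2e1, Abca6 and Cdo1 lost their calls. Deviations of same-numbered libraries from different groups correlated at -0.161 to 0.454, with a median of 0.117 and 10 of 18 pairs over 0.1. Pairs with different numbers had a median of -0.0429, with 8 of 36 over 0.1. Same-numbered libraries were thus somewhat more alike, and what the number stands for was not tested. The numbers were not taken as pairs because the labels state no pairing.

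Slope differences had 2 calls with linear Sln and 0 to 5 with a library left out, most without control-FMT replicate 3. Members called over the 6 group comparisons stayed at 0 with a library left out and with the block. The members' median difference for control-FMT minus busulfan, 0.61, was 1.25 with the block and -0.34 to 2.03 with a library left out. Those for AOS-FMT minus control (-0.28 to 0.86) and control-FMT minus control (-0.79 to 0.01) also changed sign. Group differences of log2 Sln ran over -5.76 to -2.59 for busulfan minus control, -6.50 to -2.69 for control-FMT minus control, 2.96 to 6.13 for AOS-FMT minus busulfan and 3.06 to 6.87 for AOS-FMT minus control-FMT. They changed sign for AOS-FMT minus control (-0.71 to 1.24) and control-FMT minus busulfan (-2.11 to 1.70). The causes were not tested. Sln rested on 11 and 20 counts in 2 libraries, which limits the low end of the log2 covariate.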

Other observations

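edgeR's count model of the same regression called 11 further genes rising with log2 Sln, chosen here after their values were seen. They were Mlana, Fgf12, Ppp1r1b, Fcamr, Cd207, Tmem163, Sds, Car3, Nrg2, Sbk3 and Itih4. Mlana, known from pigment cells, stood at 4.02, 90.4 and 75.1 TPM in control, 0.49, 4.39 and 14.1 TPM in busulfan, 1.17, 0.25 and 18.1 TPM in control-FMT and 3.37, 99.97 and 88.0 TPM in AOS-FMT. The edgeR slope of Mlana was 1.15 log2 CPM per unit of log2 Sln (edgeR adjusted p 3.83e-04), against a limma slope of 0.65 (limma adjusted p 0.168). Cd207, the Langerhans cell lectin gene, stood at 17.9 TPM in control replicate 2, 17.0 TPM in AOS-FMT replicate 2 and 0 TPM in busulfan replicate 1. Inside control-FMT it stayed between 0.08 and 0.36 TPM, while Sln ran from 5.16 to 1211 TPM there. Sds, a serine dehydratase gene best known from liver, stood at 26.7 TPM in control replicate 2, 25.6 TPM in AOS-FMT replicate 2 and 13.2 TPM in AOS-FMT replicate 3. Sds thus did not follow Alb, which stood at 0.87, 20.6 and 224 TPM in those 3 libraries.

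Bmp10 did not move with Sln in every library. This growth factor gene, which the adult mouse heart expresses mainly in the right atrium, stood at 4.05, 866 and 179 TPM in control, 0.10, 0.19 and 49.4 TPM in busulfan, 0.10, 0.30 and 0.75 TPM in control-FMT and 6.12, 307 and 156 TPM in AOS-FMT. Control-FMT replicate 3 had 1211 TPM of Sln with 0.75 TPM of Bmp10, whereas busulfan replicate 3 had 770 TPM of Sln with 49.4 TPM of Bmp10. Hamp, the hepcidin gene, stood at 1612 and 1702 TPM in control replicates 2 and 3, where Sln was 4735 and 5444 TPM. In control-FMT replicate 3, with 1211 TPM of Sln, Hamp was 90.2 TPM. The highest Hamp level of control-FMT, 117 TPM, was in a library lower in Sln than replicate 3.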
